A study of Mus musculus with 5 samples.

Results

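The regions described here are autosomal 1 kb tiles of the mouse genome at which the P5_a2iL teratoma lay apart from the other 3 teratomas. A tile was kept when its methylation level in P5_a2iL was 20 percentage points or more below the lowest, or above the highest, of P5_2iL, P5_2iL_F and P5_LCDM. Of 158035 tiles with 5 or more CpG cytosines listed in all 5 libraries, 2859 were lower in P5_a2iL (1.81%) and 1091 were higher (0.69%), 3950 in all. The P5_a2iL, P5_2iL, P5_2iL_F and P5_LCDM libraries came from teratomas, tumours of differentiated tissues, that formed after embryonic stem cells of the named culture condition had been put into tetraploid embryos. The labels write P5_a2iL and P5_LCDM as P5_a2iL_1 and P5_LCDM_1, and do not spell out any of these abbreviations. The fifth library is from muscle, the control tissue. All 5 are labelled with the background C57BL/6x129S6, without age, sex or number of animals. Each group holds 1 library, so every difference is between libraries, has no replicate check and no p-value, and a change in the mix of cells in a tissue cannot be told apart from a change of methylation within its cells.

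Methylation of cytosine at CpG sites is written by DNA methyltransferases and copied at cell division. CpG-rich gene starts are mostly free of it, while most CpG-poor DNA is methylated in differentiated tissue. Intermediate levels in a bulk tissue arise where some DNA molecules carry the mark and others do not, and enhancers and gene bodies of lineage regulators are known for levels that differ between cell types. Reduced representation bisulfite sequencing reads this mark as a percent of reads per cytosine, in the CpG-richer part of the genome.

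Promoters that member tiles cover are printed first, to show how few CpG sites carry the differences at gene starts. Each line gives the 250 bases before a RefSeq start (GRCm38.p6, the same build as mm10), 5′ to 3′ on the strand of the gene, and capitals mark the cytosines listed in all 5 libraries that lie in the member tile, a capital G being the cytosine of the opposite strand. Shown are the 4 with the largest tile gap in each direction among promoters with 5 or more such cytosines, a choice made after their values were seen. The lower ones are on chromosomes 3 (87748624 to 87748873, minus strand), 16 (23290220 to 23290469, plus), 15 (89377037 to 89377286, minus) and 2 (181157016 to 181157265, minus).
Lrrc71: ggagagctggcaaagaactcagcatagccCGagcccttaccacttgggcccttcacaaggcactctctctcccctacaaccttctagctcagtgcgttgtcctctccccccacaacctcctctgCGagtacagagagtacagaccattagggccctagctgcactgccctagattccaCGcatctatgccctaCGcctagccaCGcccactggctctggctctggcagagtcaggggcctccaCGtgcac
St6gal1: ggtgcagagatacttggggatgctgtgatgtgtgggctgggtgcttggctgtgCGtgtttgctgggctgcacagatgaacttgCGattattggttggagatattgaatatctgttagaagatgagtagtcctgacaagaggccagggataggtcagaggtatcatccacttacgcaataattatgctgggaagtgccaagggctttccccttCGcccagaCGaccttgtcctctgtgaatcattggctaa
Tymp: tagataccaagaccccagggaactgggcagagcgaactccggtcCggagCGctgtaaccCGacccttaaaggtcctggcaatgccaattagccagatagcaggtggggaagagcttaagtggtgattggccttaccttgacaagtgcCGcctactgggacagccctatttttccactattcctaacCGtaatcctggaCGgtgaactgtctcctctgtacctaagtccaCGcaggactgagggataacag
Eef1a2: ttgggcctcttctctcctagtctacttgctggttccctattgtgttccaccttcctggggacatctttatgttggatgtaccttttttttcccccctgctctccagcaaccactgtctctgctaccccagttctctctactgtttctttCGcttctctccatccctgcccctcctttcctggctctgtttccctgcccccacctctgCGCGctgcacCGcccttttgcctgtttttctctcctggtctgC
Over the 12 marked cytosines of Lrrc71 the mean level was 20.8% in P5_a2iL, against 88.3% in P5_2iL, 86.0% in P5_2iL_F, 77.0% in P5_LCDM and 23.3% in muscle. The 13 of Tymp, the thymidine phosphorylase gene, averaged 26.9% in P5_a2iL, against 93.1%, 90.2% and 76.5% in P5_2iL, P5_2iL_F and P5_LCDM and 4.10% in muscle. The 9 of Eef1a2, the translation elongation factor isoform of muscle and neurons, averaged 14.0% in P5_a2iL, against 55.9%, 66.7% and 57.0% in the same 3 teratomas and 2.37% in muscle. At these 3 promoters P5_a2iL lay nearer to muscle than to any other teratoma. The 8 of the sialyltransferase gene St6gal1 differed from that, with 30% in P5_a2iL, against 58.9%, 61.5% and 73.7% in P5_2iL, P5_2iL_F and P5_LCDM and 66.2% in muscle.

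The higher promoters are on chromosomes 15 (83033398 to 83033647, minus), 17 (23599488 to 23599737, minus), 4 (62619422 to 62619671, plus) and 5 (50058997 to 50059246, minus).
Nfam1: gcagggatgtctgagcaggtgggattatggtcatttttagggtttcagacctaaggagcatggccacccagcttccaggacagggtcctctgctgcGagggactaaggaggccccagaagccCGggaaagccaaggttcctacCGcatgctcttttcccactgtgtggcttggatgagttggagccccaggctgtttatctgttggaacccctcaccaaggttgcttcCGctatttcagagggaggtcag
Zfp13: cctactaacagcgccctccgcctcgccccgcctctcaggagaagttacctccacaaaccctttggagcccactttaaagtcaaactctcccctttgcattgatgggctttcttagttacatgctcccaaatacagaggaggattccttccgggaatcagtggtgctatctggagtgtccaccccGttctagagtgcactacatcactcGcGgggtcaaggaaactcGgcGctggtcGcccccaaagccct
Rgs3: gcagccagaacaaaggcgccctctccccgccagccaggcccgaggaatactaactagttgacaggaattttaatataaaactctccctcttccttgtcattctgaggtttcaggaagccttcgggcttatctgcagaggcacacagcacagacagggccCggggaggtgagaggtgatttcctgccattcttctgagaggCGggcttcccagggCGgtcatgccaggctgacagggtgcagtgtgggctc
Adgra3: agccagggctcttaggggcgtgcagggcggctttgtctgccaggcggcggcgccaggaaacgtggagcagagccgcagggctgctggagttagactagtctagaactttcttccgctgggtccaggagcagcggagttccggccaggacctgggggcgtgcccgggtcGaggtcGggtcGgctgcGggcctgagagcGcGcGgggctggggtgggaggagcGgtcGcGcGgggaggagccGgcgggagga
The 7 marked cytosines of Nfam1, an immune receptor gene of B cells and myeloid cells, averaged 53.1% in P5_a2iL, against 2.38% in P5_2iL, 0.893% in P5_2iL_F, 4.76% in P5_LCDM and 46.4% in muscle. The 5 of Rgs3, a regulator of G protein signalling, averaged 56.2% in P5_a2iL, against 18%, 18% and 17.0% in P5_2iL, P5_2iL_F and P5_LCDM and 82.7% in muscle. At these cytosines muscle was high at both, while over the whole Nfam1 tile it was 21.9%. At the other two it was not. The 6 of the zinc finger gene Zfp13 averaged 66.7% in P5_a2iL, against 6.67%, 4.76% and 0% in the other teratomas and 0% in muscle, and the 12 of Adgra3, an adhesion receptor gene, averaged 27.8% in P5_a2iL and 0% in each of the other 4 libraries. The marked cytosines of Zfp13 and Adgra3 all lie on 1 strand, so the opposite strand gives no second reading there. The tile of Nfam1 had gaps of 6.17 and 74.2 points on the strands, and that of Rgs3 39.8 and 17.5 points. Those of St6gal1 (-17.5 and -53.7) and Eef1a2 (-16.3 and -50) also fell short of 20 points on 1 strand. The tiles of Lrrc71 and Tymp passed on each strand. Among promoters of 300 bases (250 before and 50 after the start), the median number of CpG sites was 7 in the 66 touched by a lower tile and 7 in the 41 touched by a higher tile, against 21 in all 12880 touched by a tested tile. The letters GGAAGT, which hold the GGAA core of ETS factor sites and extend it, stood on either strand in 12.1% of the promoters touched by lower tiles and 36.6% of those touched by higher tiles, against 25.6% of those touched by a tested tile and 25% of all 20085. The letters AGATAA, recognised by the family of factors that includes Gata3, stood in 13.6% of the promoters touched by lower tiles and 19.5% of those touched by higher tiles, against 5.46% of those touched by a tested tile and 9.57% of all. For lower and higher tiles these shares rest on 8 and 15 promoters with GGAAGT and on 9 and 8 with AGATAA. The compared promoters were not matched for their number of CpG sites, and the part of this in the shares was not tested. Such matches describe letters, not bound sites.

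The depth of the libraries is unknown. The number of cytosines listed, which also depends on any filter used, was 4446459 for P5_a2iL, 4892985 to 5323090 for the 2iL labelled teratomas, 4601508 for P5_LCDM and 4017125 for muscle. The files give no read count, so no interval can be given for a level. How far the paired strands of a tile differ served as the error measure, which covers sampling within a library and no spread between animals or library preparations. Per tile and strand this spread was 9.23 points in P5_a2iL, 6.09 in P5_2iL, 6.60 in P5_2iL_F, 8.40 in P5_LCDM and 10.2 in muscle. P5_a2iL thus had the widest spread of the teratomas beside its member counts. The label of muscle was checked at 40 tiles around starts of 23 skeletal muscle genes, where the mean level was 49.2% (P5_LCDM) to 57.8% (P5_2iL) in the teratomas and 34.1% in muscle. Muscle was also the lowest library over all gene starts, at 13.4%, against 15.4 to 16.3% in the teratomas, and at starts of the neural, endoderm, mesenchyme, trophoblast and pluripotency lists, so a lower level was not particular to muscle genes.

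The same size rule with each other teratoma in the place of P5_a2iL gives the background of these counts. P5_LCDM was set apart at more tiles, 12366 lower (7.82%) and 1616 higher (1.02%). P5_2iL was lower at 279 tiles (0.177%) and higher at 543 (0.344%), and P5_2iL_F was lower at 223 (0.141%) and higher at 240 (0.152%). P5_LCDM bounded the choice most often: among the other 3 teratomas it was the nearest to P5_a2iL at 54.8% of lower and 48.5% of higher tiles. Without P5_LCDM in the rule the counts were 8914 lower and 3293 higher tiles.

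Lower tiles were intermediate in P5_a2iL and mostly methylated in the other teratomas. Their median level was 51.8% in P5_a2iL (quartiles 39.9 and 61.1%), 90.8% in P5_2iL, 87.1% in P5_2iL_F and 83.8% in P5_LCDM. P5_a2iL lay between 20 and 80% at 93.3% of them, against 34.6% of all tiles. Tiles under 20% in P5_a2iL and over 80% in the other 3 teratomas numbered 17. The higher tiles had a median of 60.0% in P5_a2iL (quartiles 44.4 and 77.0%), against 16.8% in P5_2iL, 20.8% in P5_2iL_F and 24.2% in P5_LCDM, and only 5 were over 80% in P5_a2iL and under 20% in each of the others. These levels chose the tiles and are given as a description. The gap to the nearest other teratoma had a median of 25.9 points for lower and 26.7 points for higher tiles, and the largest were 95 and 100 points. Just inside the threshold, at gaps of 20 to 21 points, 318 lower tiles had median levels of 60.0% in P5_a2iL, 90.6% in P5_2iL, 86.7% in P5_2iL_F and 82.1% in P5_LCDM, and just outside it, at 19 to 20 points, 348 tiles had 60.6%, 90.2%, 85.8% and 83.9%. For higher tiles the 112 just inside had 60.0%, 26.6%, 34.1% and 34.7%, and the 120 just outside had 52.8%, 17.8%, 24.4% and 27.0%.

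**Figure D1:**
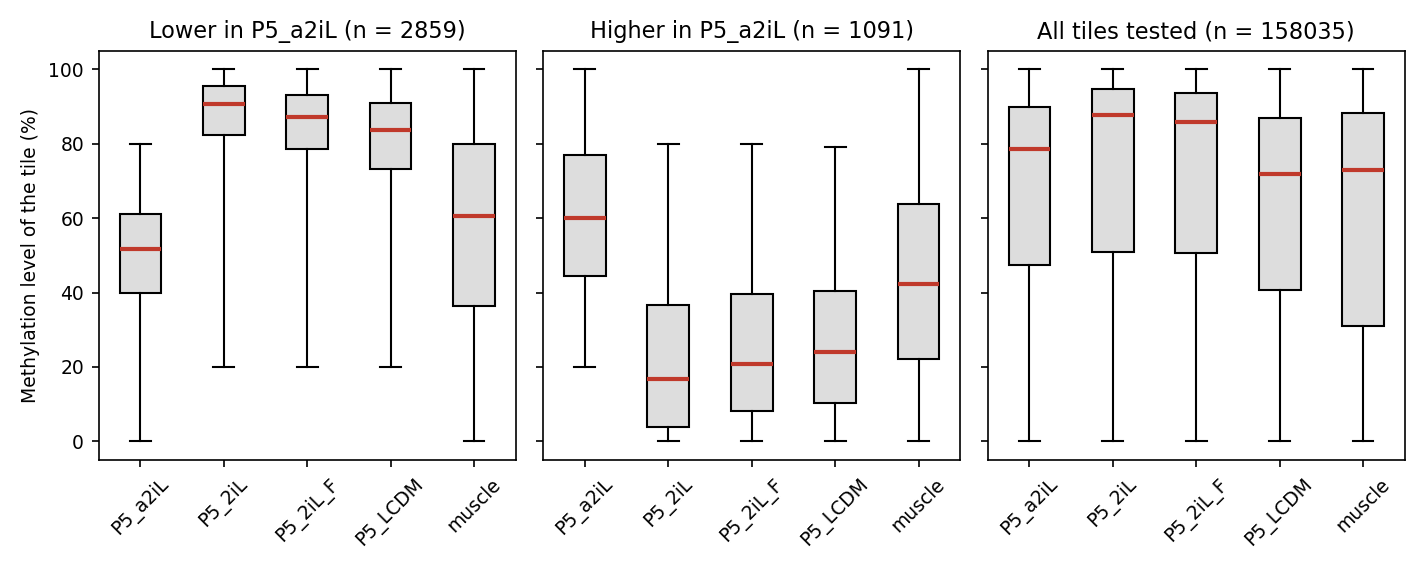
Methylation level (percent, vertical axis) of lower tiles, higher tiles and all tiles tested in each library. Boxes span the quartiles with the median in red, and whiskers reach the lowest and highest tile. P5_a2iL has median levels of 51.8% at lower and 60.0% at higher tiles, and muscle, which the rule did not use, 60.7% and 42.4%.

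Muscle took no part in the comparison that chose the tiles. At lower tiles its median level was 60.7% (quartiles 36.5 and 80.1%), against 72.9% over all tiles. Muscle lay within 20 points of P5_a2iL at 1417 lower tiles (49.6%), 20 points or more above it at 1037 (36.3%) and 20 points or more below it at 405 (14.2%), whereas over all tiles these shares were 83.0%, 3.50% and 13.5%. At higher tiles the muscle median was 42.4% (quartiles 22.1 and 63.8%), with 548 tiles (50.2%) within 20 points of P5_a2iL, 499 (45.7%) 20 points or more below it and 44 (4.03%) as far above it. Muscle thus fell on both sides: at about as many tiles P5_a2iL was like muscle as it stood apart from muscle too. Muscle was nearer to P5_a2iL than to the range of the other teratomas at 54.5% of lower and 45.1% of higher tiles. Over all tiles this share was 19.4%, which is not a like background. Where P5_a2iL lies inside the range of the others, muscle cannot be nearer to it, and members lie outside by the rule. Muscle itself lay inside that range at 43.5% of all tiles, against 17.2% of lower and 17.5% of higher tiles. At the tiles set apart in P5_LCDM, muscle was nearer to P5_LCDM at 38.1% of the lower and 33.8% of the higher ones, with muscle medians of 72.0% and 35.3%.

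**Figure D2:**
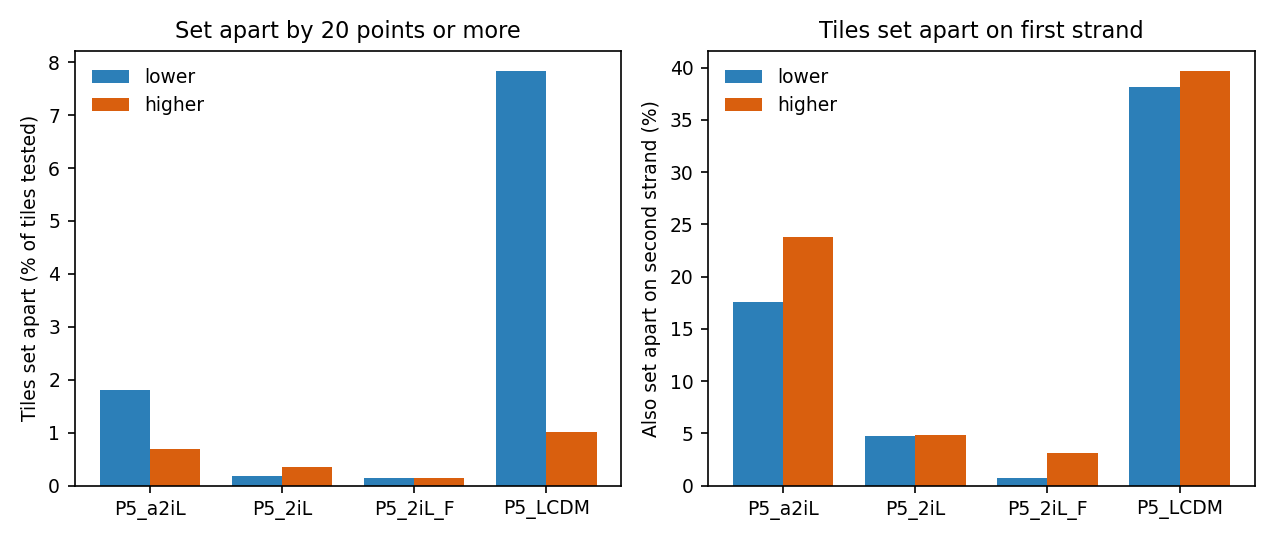
Left, share of the 158035 tiles that each teratoma sets apart by 20 points or more in each direction. Right, of the tiles set apart on the first strand alone, the share also set apart on the second strand, from 0.704% (P5_2iL_F lower) to 39.6% (P5_LCDM higher), with 17.6 and 23.8% for P5_a2iL.

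The 2 strands of a tile gave a second reading within the same libraries. In 100872 tiles with 3 or more CpG sites listed on both strands, P5_a2iL was lower on the first strand alone at 2613 tiles (2.59%), on the second alone at 2535 (2.51%) and on each of them at 459 (0.455%). It was higher at 989 (0.98%), 980 (0.972%) and 235 (0.233%) tiles. The strands passed in opposite directions at 24 tiles. Tiles chosen as lower on the first strand differed from the mean of the other 3 teratomas by a median of -33.3 points on that strand and -11.1 points on the second, where all tiles had -0.37. Tiles chosen as higher differed by 35.6 and 15.4 points. All tiles include those whose levels in the other teratomas bar them from the choice, so their median is not a like background. Of the lower tiles of the first strand 17.6% were also lower on the second, and of the higher ones 23.8%. For P5_LCDM these shares were 38.2% and 39.6%, for P5_2iL 4.78% and 4.85%, and for P5_2iL_F 0.704% and 3.12%. On the strand that did not choose the tile the median difference thus had the same direction and a smaller size, and a single member with few cytosines is uncertain. Lower members had a median of 8 cytosines and higher members 9, against 10 over all tiles.

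Of the members, 1419 lower and 590 higher tiles had 3 or more such CpG sites, and 416 (29.3%) and 219 (37.1%) of them passed 20 points on each strand. At these 416 lower tiles the median level was 49.7% in P5_a2iL, 90.4% in P5_2iL, 86.2% in P5_2iL_F, 83.6% in P5_LCDM and 51.8% in muscle. At the 219 higher tiles it was 60.5% in P5_a2iL, 13.5%, 18.1% and 21.1% in the other teratomas and 41.4% in muscle. The strands lay on opposite sides of the other teratomas at 7 lower and 1 higher members.

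**Figure D3:**
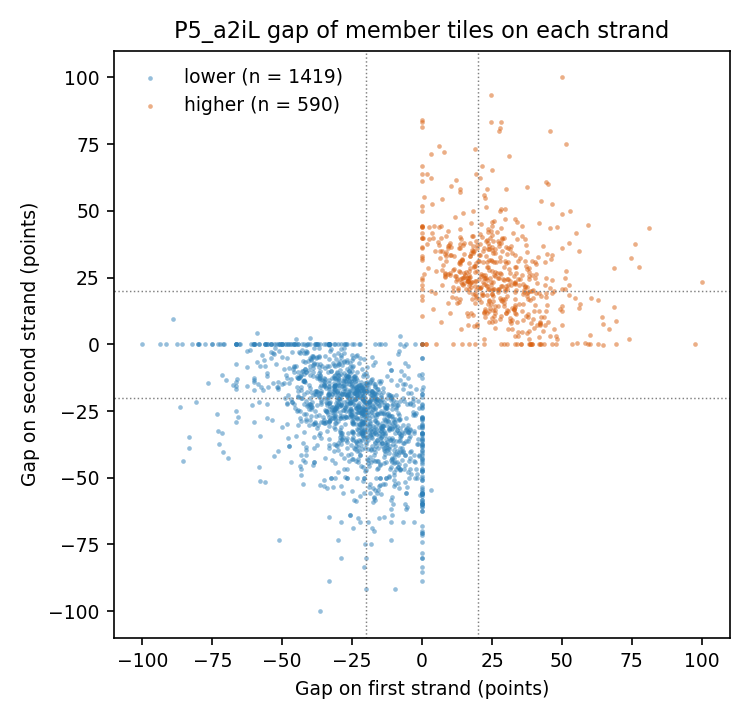
Gap of P5_a2iL to the nearest of the other 3 teratomas (percentage points, 0 where it lies inside their range) on the first strand (horizontal) and on the second (vertical) for 1419 lower and 590 higher member tiles. Dotted lines mark 20 points. Of these tiles 416 and 219 are past both lines in their direction, and 7 and 1 have strands of opposite sign.

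Cytosines inside member tiles that muscle does not list played no part in the choice. They could be read, 3 or more per tile in all 4 teratomas, at 288 lower tiles with 1930 cytosines. There the difference of P5_a2iL from the mean of the other 3 had a median of -13.1 points, against -33.0 points over the cytosines that chose these tiles, and it was below 0 at 217 tiles and above 0 at 67. At 95 higher tiles with 720 such cytosines it was 16.0 points, against 33.2 points, above 0 at 65 and below 0 at 22. Over all 22264 tiles with such cytosines the median was 0, but these include tiles whose levels bar them from the choice.

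Most members stood alone. The 2859 lower tiles formed 2765 separate stretches and the 1091 higher tiles 1057, with 88 and 33 runs of 2 or more member tiles that allow 1 other tile between them. Of tested tiles directly beside a lower tile, 10.8% upstream and 10.5% downstream in genome order were lower too, where the background is 1.81%, and beside higher tiles 10.1% and 10.7% were higher, where it is 0.69%. Neighbours that were not members also leaned the same way. Their median difference was -5.34 and -4.48 points beside lower tiles and 2.43 and 3.82 points beside higher tiles, against -0.47 over all tiles. From 2 to 10 kb away it ranged from -2.03 to -0.61 points around lower tiles and from -1.78 to 0.41 points around higher tiles. Reads that cross a tile edge enter both tiles, and their part in the 1 kb values was not tested.

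**Figure D4:**
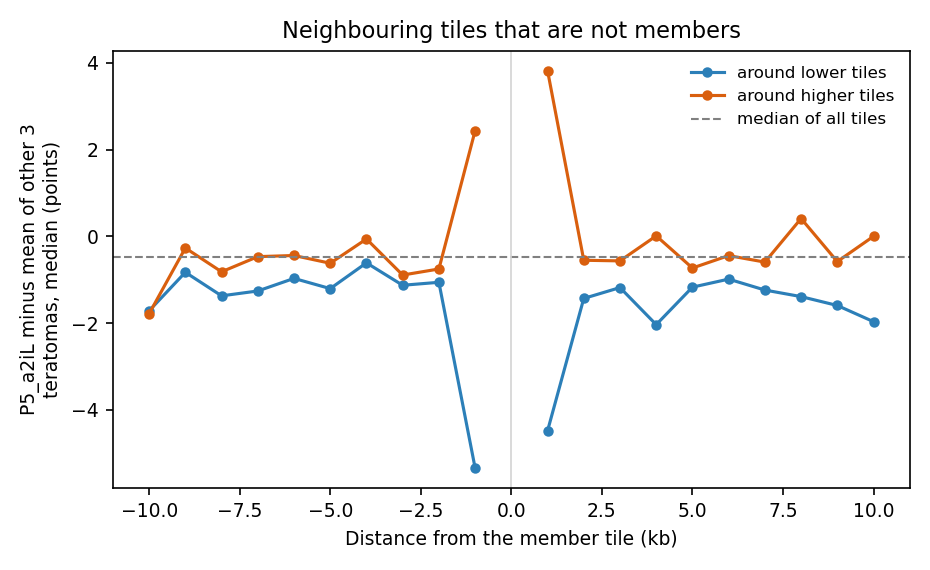
Median difference of P5_a2iL from the mean of the other 3 teratomas (percentage points) in tested tiles that are not members, by distance in kb from a lower or a higher member tile. The dashed line is the median of all tiles at -0.47 points. The largest departures, -5.34 and 3.82 points, are in the tiles directly beside the members.

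Members were spread over all 19 autosomes, with 1.35% (chromosome 16) to 2.18% (chromosome 8) of tested tiles lower and 0.485% (chromosome 7) to 0.897% (chromosome 16) higher. They were sparse at gene starts, where the rule itself limits how many tiles can be lower. Within 1 kb of the start of a protein coding gene 166 of 20679 tiles were lower (0.803%) and 78 higher (0.377%), while in genes away from starts 2.13% were lower and 0.753% higher, and outside genes 1.76% and 0.719%. Genes held 59.8% of lower and 57.1% of higher tiles, against 58.5% of all tiles, and 45% of the tiles lower in P5_LCDM. CpG-rich tiles were rarely set apart: of tiles with 40 or more cytosines 0.279% were lower and 0.0797% higher, against 2.52% and 0.865% of those with 5 to 9. A mean over more cytosines also varies less. A tile can be lower only if each of the other teratomas is at 20% or more. Tiles at gene starts had mean levels of 16.3% in P5_2iL, 16.1% in P5_2iL_F and 15.8% in P5_LCDM. Part of them thus could not be lower, so the low share of lower tiles at starts does not by itself describe position. Higher tiles are not bound by this floor but by a ceiling, since each other teratoma must then be at 80% or less. The part of the floor, the ceiling and the smaller variation in these shares was not tested.

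Among members with 10 or more cytosines that passed on each strand, the largest lower gap was inside Plekhh2, an actin-binding protein gene of kidney podocytes, on chromosome 17 (84603001 to 84604000). This tile was at 15.4% in P5_a2iL, against 91.2% in P5_2iL, 90.3% in P5_2iL_F, 88.9% in P5_LCDM and 20.8% in muscle over 12 cytosines. A tile inside Casz1, a zinc finger regulator of heart and vessel development, on chromosome 4 (148937001 to 148938000) was at 23.3% in P5_a2iL, against 84.8%, 96.7% and 92.1% in the other teratomas in the same order and 28.7% in muscle. In both, P5_a2iL and muscle were low and the other teratomas high.

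The tile of Hlx, a homeobox gene of gut and liver mesenchyme, on chromosome 1 (184727001 to 184728000) rests on the most cytosines of this group. Its 64 cytosines averaged 39.2% in P5_a2iL, against 97.0%, 90.4% and 93.6% in P5_2iL, P5_2iL_F and P5_LCDM and 47.2% in muscle, with gaps of -69.3 and -42.7 points on the strands. It lies within 1 kb of an end of the gene that is not a listed start. A tile 6833 bp from Katnal1 on chromosome 5 (148936001 to 148937000) went the other way with muscle, at 23.6% in P5_a2iL, against 98.6%, 97.1% and 93.8% in the other teratomas and 96.7% in muscle. Tiles of this group also lay inside the actin regulator Mical3, BC034090, the glutathione transferase Gsto2, the neuron navigator Nav1 and Gse1, with gaps from -55.6 to -53.4 points. Muscle was at 10% in BC034090, 50 and 58.3% in Gse1 and Mical3, and 76.8 and 82.7% in Nav1 and Gsto2.

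**Figure D5:**
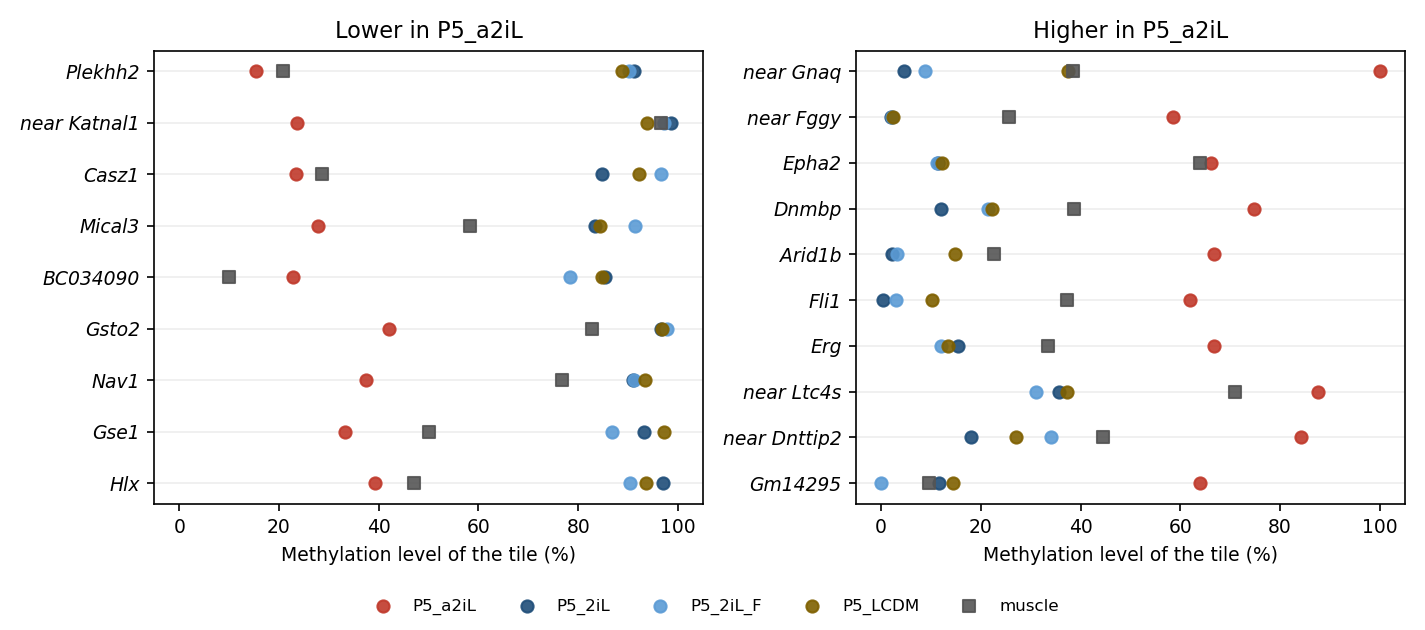
Methylation level (percent, horizontal axis) of 9 lower and 10 higher member tiles with the largest gaps among those with 10 or more cytosines and 20 points on each strand, labelled by the gene they lie in or the nearest one. Tiles labelled near a gene lie 1469 to 202480 bp from it. Circles are teratomas and squares muscle. P5_a2iL lies alone among the teratomas by construction, while muscle ranges from 10 to 96.7% at the lower and from 9.62 to 70.9% at the higher tiles.

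The largest higher gap of the same kind was 47684 bp from Gnaq on chromosome 19 (16084001 to 16085000), where 13 cytosines averaged 100% in P5_a2iL, against 4.58% in P5_2iL, 8.79% in P5_2iL_F, 37.4% in P5_LCDM and 38.5% in muscle. Inside Epha2, an ephrin receptor kinase gene, on chromosome 4 (141316001 to 141317000) the level was 66.1% in P5_a2iL, against 11.3%, 11.1% and 12.2% in the other teratomas and 63.9% in muscle. In Arid1b, a subunit gene of the BAF chromatin remodelling complex, on chromosome 17 (5249001 to 5250000) it was 66.8% in P5_a2iL, against 2.23%, 3.12% and 14.9% in the other teratomas and 22.6% in muscle. At these tiles P5_a2iL thus matched muscle in Epha2 and lay above it in Arid1b. Arid1b as a whole held 4 lower tiles and 1 higher among 44 tested. The others had gaps from 49.4 to 56.1 points. They lay inside Dnmbp, Fli1, Erg and Gm14295, or outside genes. There the nearest gene was Fggy (202480 bp away), Ltc4s (1469 bp) or Dnttip2 (36730 bp).

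Endothelial genes held the largest share of higher tiles of the 13 gene lists. The genes Erg and Fli1 encode ETS transcription factors of endothelium and blood, Kdr and Flt1 receptors of vascular endothelial growth factor, Eng a TGF-beta co-receptor and Pecam1 an adhesion molecule. Of 16 measured endothelial genes these 6 (37.5%) had a higher tile within the gene or 2 kb of it, where 3.86% of all 17111 measured genes did. Flt1 and Vwf (12.5%) had a lower tile, where 9.15% of all genes did. Over tiles, 5.99% of the 167 of this list were higher, against 0.677% of the tiles of all genes, and 2.40% lower, against 1.86%. Erg alone held 5 of these higher tiles. The 13 lists were chosen with earlier results of these data known, so these shares are a description. Median level over those 167 tiles was 70% in P5_a2iL, 83.3% in P5_2iL, 80.3% in P5_2iL_F, 57.9% in P5_LCDM and 52.4% in muscle, so the list as a whole did not lie highest in P5_a2iL.

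Erg held 5 higher tiles and no lower one among 32 tested. The first, on chromosome 16 (95401001 to 95402000), was at 66.7% in P5_a2iL, against 15.4%, 11.9% and 13.3% in P5_2iL, P5_2iL_F and P5_LCDM and 33.4% in muscle. The neighbouring pair from 95448001 to 95450000 was at 69.4 and 35.6% in P5_a2iL, against 21.8 and 0% in P5_2iL, 29.4 and 2.01% in P5_2iL_F, 33.1 and 7.54% in P5_LCDM and 41.8 and 36.2% in muscle. These 3 passed on each strand. The tile of Fli1 on chromosome 9 (32516001 to 32517000) was at 61.9% in P5_a2iL, against 0.446%, 2.98% and 10.2% in the other teratomas and 37.2% in muscle, with strand gaps of 59.3 and 44.8 points. It lies inside the gene and not within 1 kb of a listed start.

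The tile at the start of Eng, on chromosome 2 (32646001 to 32647000), was at 41.2% in P5_a2iL, against 0.991%, 4.88% and 1.10% in the other teratomas and 34.4% in muscle over 27 cytosines. Its second strand fell short of the threshold with a gap of 13.7 points. The tile at an end of Kdr, on chromosome 5 (75933001 to 75934000), was at 46.9% in P5_a2iL, against 0%, 0% and 2.31% in the other teratomas and 0% in muscle, with gaps of 28.3 and 0 points on the strands, so only 1 strand showed it. Flt1, also on chromosome 5, held 3 lower tiles and 1 higher tile. The tile from 147646001 to 147647000 was at 64.3% in P5_a2iL, against 37.3%, 39.9% and 30.2% in the other teratomas and 75.7% in muscle, and the tile from 147601001 to 147602000 at 36.4% in P5_a2iL, against 96.2%, 76.7% and 75.6% in the other teratomas and 69.6% in muscle. Both passed on each strand. The higher tile of Flt1 and that of Pecam1 fell outside the naming rule and were chosen after their values were seen. Pecam1 was at 66.8% in P5_a2iL, against 39.6%, 43.4% and 19.3% in the other teratomas and 24.4% in muscle.

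Higher tiles at gene ends beyond these lists included Ptgir, which encodes the prostacyclin receptor of platelets and vessels. It had 3 higher tiles among 4 tested, on chromosome 7 (16907001 to 16911000), which averaged 44.2% in P5_a2iL, against 0.454% in P5_2iL, 2.06% in P5_2iL_F, 10.7% in P5_LCDM and 21.7% in muscle over 21 cytosines. This was the only run of 3 higher tiles. Osgin1, an oxidative stress gene, had a tile at 54.4% in P5_a2iL, against 4.29%, 6.06% and 6.35% in the other teratomas and 51.9% in muscle. Nfkbil1 and Ppp1r16b, the last a phosphatase regulator of endothelial cells, had gaps of 43.4 and 41.7 points. The run of 2 tiles in the T cell adaptor gene Skap1 on chromosome 11 (96504001 to 96506000) averaged 80.4% in P5_a2iL, against 4.76%, 16.2% and 14.6% in the other teratomas and 47.1% in muscle. Ptgir, Dnmbp, Anp32a, the calcium channel gene Itpr1, Nfatc2, Pxn and Mtss1 held 3 higher tiles each, which for the last 6 was 11.5%, 20%, 10.3%, 9.38%, 9.09% and 7.69% of their tested tiles. Dnmbp and Pxn also held 1 lower tile each. Of tiles in genes away from starts 0.753% were higher, and these 7 genes were picked for their number of higher tiles.

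Imprinted genes are expressed from 1 parental copy, and methylation of 1 copy gives intermediate levels. Of 29 measured imprinted genes 6 (20.7%) had a higher tile and 3 (10.3%) a lower one, against 3.86% and 9.15% of all genes. Sgce and Peg10 share their tiles on chromosome 6, so the same tiles count for both genes in the 20.7%. By tiles, 3.48% of the 201 of this list were higher, against 0.677% of the tiles of all genes. Lower were 1.49%, against 1.86%. The one from 4747001 to 4748000 was at 83.8% in P5_a2iL, against 42.2%, 37.7% and 36.9% in P5_2iL, P5_2iL_F and P5_LCDM and 15.0% in muscle over 43 cytosines, and passed on each strand. The other three teratomas lay near the middle of the scale there and P5_a2iL well above it. Zdbf2 had 2 higher tiles, of which the one on chromosome 1 from 63261001 to 63262000 was at 91.4% in P5_a2iL, against 62.8%, 56.9% and 58.0% in the other teratomas and 53.6% in muscle, and only its second strand passed. The tile of Cdkn1c, a growth inhibitor gene, was at 73.6% in P5_a2iL, against 20%, 42.0% and 51.8% in the other teratomas and 22.2% in muscle, but P5_a2iL lay inside their range on both strands of its paired sites. Ndn and Igf2r, chosen after their values were seen, had gaps of 21.1 and 20.9 points. Lower tiles were in Kcnq1 (gap of -31.0 points), at Nnat (-25.9, inside Blcap as well) and in Inpp5f (-20.7). On the strands the gaps were -17.1 and -57.1 points for Kcnq1, 0 and -5 for Nnat, and 0 and -41.7 for Inpp5f. None of them passed on each strand.

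The genes with the most lower tiles were Nfix, Gse1, Zfp423, Nav2, Camta1 and Nav1, and genes with more tested tiles can hold more members. Nfix, a nuclear factor I gene that directs fetal muscle and neural development, had 9 lower tiles and 1 higher among 40 tested (22.5% lower), where 2.13% of tiles in genes away from starts were lower. Over these 9 tiles the levels ranged from 32.5 to 67.9% in P5_a2iL, 75.9 to 97.8% in P5_2iL, 66.0 to 95.1% in P5_2iL_F, 66.7 to 97.1% in P5_LCDM and 12.3 to 46.7% in muscle. Muscle was thus below the other teratomas over all 9, and the P5_a2iL level lay between it and the other teratomas in 8. Zfp423, a zinc finger regulator of fat and neural precursors, had 8 lower among 56 (14.3%). Nav1 and Nav2, of the neuron navigator family, had 6 among 40 (15.0%) and 7 among 95 (7.37%), and Camta1, a calmodulin-binding transcription activator, 6 among 167 (3.59%). Nav2 also had 1 higher tile. Gse1 had 8 lower and 5 higher tiles among 137. By share of tested tiles the order differed, with 3 of 6 tiles lower in Colq (50%) and 3 of 7 in Cyp26c1 and in Ddc (42.9%), which were chosen after their values were seen. In all, 74 genes held 3 or more lower tiles and 9 held 3 or more higher ones, of 16708 measured.

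The runs of 3 lower tiles lay in Colq, Fmnl1, Nav2, Nfix, Hoxb3 and Ptpn6. Colq encodes the collagen tail that anchors acetylcholinesterase at the neuromuscular junction, and its run on chromosome 14 (31556001 to 31559000) averaged 38.7% in P5_a2iL, against 82.5%, 84.2% and 83.3% in the other teratomas and 57.7% in muscle over 48 cytosines. The run in Hoxb3 on chromosome 11 (96344001 to 96347000) averaged 45.9% in P5_a2iL, against 88.1%, 81.5% and 76.1% in the other teratomas and 39.2% in muscle over 131 cytosines. The 118 cytosines of the run in Fmnl1, a formin gene of leukocytes, averaged 51.8% in P5_a2iL, against 92.3%, 90.7% and 86.3% in the other teratomas and 36.8% in muscle. Muscle lay below P5_a2iL in Hoxb3 and Fmnl1 and above it in Colq. Hoxb3 as a whole held 4 lower and 2 higher tiles among 14 tested.

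At gene ends the largest lower gap was at Gm7030 on chromosome 17 (36128001 to 36129000), with 0% in P5_a2iL, against 95%, 95.8% and 100% in the other teratomas and 54.2% in muscle over 8 cytosines, and the next tile was lower as well. The platelet glycoprotein gene Gp1bb was at 0% in P5_a2iL, against 59.8%, 52.3% and 81.8% in the other teratomas and 9.09% in muscle over 11 cytosines, in a tile that lies inside Septin5, within 1 kb of the start of Gp1bb. Aqp5, the water channel gene of glands, was at 30.4% in P5_a2iL, against 81.4%, 87.2% and 77.8% in the other teratomas and 46.4% in muscle. None of these 3 tiles had 3 paired CpG sites, so no strand check was possible. Krt80, an epithelial keratin gene, passed on each strand, with 33.9% in P5_a2iL, against 90.1%, 82.1% and 81.0% in the other teratomas and 45.8% in muscle. The Notch target gene Heyl was at 33.9% in P5_a2iL, against 90.6%, 84.2% and 79.6% in the other teratomas and 11.8% in muscle, with strand gaps of -11.1 and -73.3 points, and Fam180a and LOC102637806 had gaps of -57.4 and -52.8 points.

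Of 42 skeletal muscle genes 5 (11.9%) had a lower tile and 0 a higher one, against 9.15% and 3.86% of all genes. By tiles, 1.82% of this list were lower, against 1.86% of the tiles of all genes. Mylpf, the fast muscle myosin light chain gene, passed on each strand on chromosome 7 (127215001 to 127216000), at 33.4% in P5_a2iL, against 81.7%, 67.4% and 64.9% in the other teratomas and 19.8% in muscle over 28 cytosines. This tile lies inside Septin1, within 1 kb of an end of Mylpf. The calcium store gene Casq1 was at 50% in P5_a2iL, against 100%, 95.8% and 83.3% in the other teratomas and 31.2% in muscle over 8 cytosines. Neb and Actn2, of the thin filament and the Z-disc, had gaps of -20.8 and -22.7 points, with muscle at 64.3 and 100%, and the myoglobin gene Mb, chosen after its values were seen, stood exactly at the threshold over 5 cytosines.

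Developmental transcription factor genes had 7 of 69 (10.1%) with a lower and 3 (4.35%) with a higher tile, near the shares of all genes. Pax5, of B cells and midbrain, had the largest lower gap at -41.0 points, followed by Foxc1, Gbx2 and Lmx1a, and Hoxc9, Meis1 and Hoxd13 were higher. Meis1, a partner of Hox proteins, passed on each strand over 39 cytosines, at 50.7% in P5_a2iL, against 5.25%, 10.3% and 24.0% in the other teratomas and 12.6% in muscle. Genes of mesenchyme and cartilage had 4 of 26 (15.4%) with a lower tile (Runx2, Tagln, Sox6 and Sox5) and 2 (7.69%) with a higher one (Sox5 and Sox6). Runx2, the regulator of bone formation, passed on each strand, at 52.1% in P5_a2iL, against 96.8%, 92.3% and 91.5% in the other teratomas and 60.6% in muscle. Trophoblast genes had 2 of 11 (18.2%) with a lower tile (Tfap2c and Gata3) and 1 (9.09%) with a higher one (Tfap2c). The shares of all genes were 9.15% and 3.86%. Genes with more tested tiles can hold more members. The developmental, mesenchyme and trophoblast lists had medians of 7, 6.5 and 8 tested tiles per gene, against 4 over all genes. By tiles, 1.06%, 1.69% and 1.98% of these lists were lower, against 1.86% of the tiles of all genes. Higher were 0.454%, 0.678% and 0.990%, against 0.677%.

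For the lists left, the shares of all genes with a lower and a higher tile, 9.15% and 3.86%, apply as well. Genes of the DNA methylation machinery had 3 of 19 (15.8%) with a lower tile, Uhrf2, Zbtb38 and the demethylating enzyme gene Tet3, and 0 with a higher one. Tumour suppressor genes had 4 of 37 (10.8%) lower (Cdh13, Apc, Nf2 and Dapk1) and 2 (5.41%) higher (Dapk1 and Cdkn1a). The start of Dapk1, a death-associated kinase gene, was at 37.5% in P5_a2iL, against 0.34%, 1.54% and 3.20% in the other teratomas and 0% in muscle, and only its first strand showed the gap. Neural genes had 3 of 32 (9.38%) lower (Rbfox3, Snap25 and Mbp), genes of endoderm and epithelium 2 of 30 (6.67%), pluripotency genes 2 of 26 (7.69%, Fgf4 and Esrrb) and germline genes 2 of 33 (6.06%, Tdrd1 and Zar1l), all with 0 higher. Blood and immune genes had 1 of 21 (4.76%) lower (Runx3) and 1 (4.76%) higher (Lcp2, a T cell adaptor). By tiles, 2.01% of the DNA methylation list and 1.39% of the tumour suppressor list were lower, against 1.86% for all genes. The other lists of this paragraph ranged from 0.658% (blood and immune) to 1.77% (germline). Shares of 3 genes or fewer rest on few tiles, and no test was made on any list.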

How the data were processed

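Reduced representation bisulfite sequencing of 5 mouse libraries was used. The deposited files give the percent of methylated reads per CpG cytosine, with the strands on separate lines and no coverage. Trim Galore 0.6.4, Bismark and build mm10 are named in the submitters' processing notes. Settings and any coverage minimum of the authors were not known, so no coverage filter was set. Column 2 was found to count from 1: so read, 100% of 252637 shared cytosines in RefSeq promoter windows fell on a CpG.

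Tile levels are plain means over cytosines listed in all 5 files. Strands were read from isolated neighbouring pairs. Genes (20665 protein coding, autosomal) and starts came from RefSeq GRCm38.p6. No test fits 1 library per group, so size rules were used.

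Named tiles were the 10 largest gaps with 10 or more cytosines and 20 points on each strand, the 10 largest at gene ends, the longest runs, genes with 3 or more members, and up to 4 genes per list, leaving out tiles at the ends of several genes unless all are named. A named tile and a listed gene are not reported here. Printed promoters were chosen after their values were seen. The members and 13 lists were chosen with earlier results of these data known. The code was tested on simulated data. Figures were drawn with matplotlib 3.10.9, and values computed with pandas 2.3.3 and NumPy 2.4.6 in Python 3.11.15.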

Additional observations from a re-analysis of the deposited data

How the results depend on the processing

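Lower tiles outnumbered higher ones in the 19 other settings tried, by a ratio from 1.90 (20 points on each strand) to 2.99 (all cytosines of each library). By the main rule a tile can be higher only if each other teratoma is at 80% or less. It can be lower only if each is at 20% or more. P5_2iL, P5_2iL_F and P5_LCDM were over 80% at 61.9%, 59.6% and 37.6% of all tiles. They were under 20% at 19.4%, 19.2% and 18.4%. More tiles were thus barred from being higher, and the part of this in the ratio was not tested. The counts themselves depend on the rule. With gaps of 15, 25 and 30 points there were 5144, 1606 and 894 lower and 1889, 653 and 379 higher tiles. With minima of 3 and 10 cytosines there were 4546 and 1097 lower and 1661 and 485 higher tiles. Medians in place of means gave 4580 and 1759. The first strand alone gave 1249 and 454, and the second 1171 and 470, where fewer tiles have enough cytosines. Without P5_LCDM the counts were 8914 and 3293, and requiring 20 points on each strand, a setting chosen after seeing the data, left 416 and 219. The other 9 settings, other tile sizes among them, stayed within 1.5 times of the main counts.

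The muscle median at lower tiles was 60.7% and ranged from 51.8% (20 points on each strand) to 66.7%. At higher tiles it was 42.4% and ranged from 36.1 to 57.7%, the last without P5_LCDM in the rule. Flank medians (tiles that are not members, within 5 kb of a member) and other-strand medians were rerun in 2 other settings each. The other-strand medians kept their direction, and so did the flank median around lower tiles (-1.83 points in the main setting). Around higher tiles the flank median was 0 in the main setting and 0.0268 and 0.341 points in the others, so it had no direction to reverse. The cause of the shifts in all these medians was not tested. A coverage minimum was not run, since the files give no coverage. No paired analysis was possible because each group holds 1 library. With 1 library per group and unknown depth, no level has an interval.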

Other observations

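The X chromosome was outside the choice of tiles. Of its 4212 tiles with 5 or more cytosines in all 5 libraries, P5_a2iL was lower by the same size rule at 57 (1.35%) and higher at 14 (0.332%). P5_LCDM was lower at 516 (12.3%) and higher at 29 (0.689%). The median level over these tiles was 84.0% in P5_a2iL, 90% in P5_2iL, 89.0% in P5_2iL_F, 73.1% in P5_LCDM and 83.0% in muscle.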
